A study of Rattus norvegicus with 6 samples.

Results

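The endocannabinoid system was examined through 10 genes that encode its receptors, one receptor partner and the enzymes that make and break down its lipid messengers. The genes were Cnr1, Cnr2, Cnrip1, Dagla, Daglb, Mgll, Abhd6, Abhd12, Napepld and Faah. They were picked out by their rat symbols from the 38445 genes of the counting annotation, with no cutoff on a measured value, although earlier results of these data were known when the set was drawn up. RNA-seq had been performed on the amygdala of adult male Sprague Dawley rats given an intraperitoneal injection of saline (control) or of ethanol at 1 g/kg (ethanol), with the tissue taken 1 h later. No allele or transgene was named for either group, and the study's rats were under isoflurane when brains were taken. Each library combined the RNA of 2 rats, so that 6 rats per group gave 3 libraries per group, and the spread between libraries is a spread between pools of rats. The dissected tissue held the central, medial and basolateral nuclei together, so the values are averages over all cells of these nuclei.

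Endocannabinoids are lipid messengers that neurons release from the postsynaptic side and that act backwards on the presynaptic terminal. The CB1 receptor, encoded by Cnr1, sits on many axon terminals and lowers transmitter release through Gi and Go proteins, with dense expression on cholecystokinin (CCK) interneurons and a lower level on glutamatergic terminals. In the amygdala this signalling is known for its part in fear extinction and anxiety. The messenger 2-arachidonoylglycerol is made by diacylglycerol lipases and broken down by serine hydrolases, whereas anandamide is released by a phospholipase D and hydrolyzed by fatty acid amide hydrolase.

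Between 62576504 and 70755739 reads per library had been assigned to genes. Levels are given as CPM, which are counts per 1000000 assigned reads, after the library sizes had been adjusted with edgeR's TMM method. Summed markers of choroid plexus epithelium lay between 533 and 1156 CPM in the control libraries, and were 12.5, 13.5 and 495 CPM in ethanol libraries 1, 2 and 3. No choroid plexus marker was at 0 in all 6 libraries, although Otx2 reached at most 0.0141 CPM. Ependymal markers also stood apart, with 26.6 to 37.5 CPM in the controls and 21.3 to 25.1 CPM in the ethanol libraries, whereas the summed endothelial markers overlapped between groups (147 to 165 and 146 to 165 CPM). Neuronal markers of the amygdala were present in each library, with summed levels of glutamatergic neuron markers between 594 and 1111 CPM and of GABA neuron and central amygdala markers between 922 and 1190 CPM. Of the 5 pan-neuronal markers, Eno2 was the only one near 0, with at most 0.0765 CPM. Why Eno2 and Otx2 had so few reads was not tested, and neither value is read as absence of expression.

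Of the 10 genes, 9 passed the filter on low counts, and Faah did not. The 9 genes differed widely in level per exon length, which was taken as CPM per kb of counted exon over the 6 libraries. Abhd12 was highest with 97.4 ± 4.52 (SD, n = 6 libraries), and Cnrip1 was next with 83.1 ± 5.25. Cnr1 (41.8 ± 8.86) and Mgll (38.6 ± 3.03) came next, and Cnr1 was the higher of this pair in only 3 of the 6 libraries. Dagla (15.9 ± 1.45) and Abhd6 (15.3 ± 1.22) also had overlapping ranges, with Dagla higher in 4 of 6 libraries. Daglb followed with 10.4 ± 0.764, Napepld with 2.63 ± 0.132 and Cnr2 with 0.513 ± 0.0632. For each of the other neighbours in this order, the gene with the higher mean was higher in 6 of 6 libraries and the ranges did not overlap. The counted length joins all exons listed for a gene, so a gene with long or rarely used exons has a lower value per kb.

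**Figure D1:**
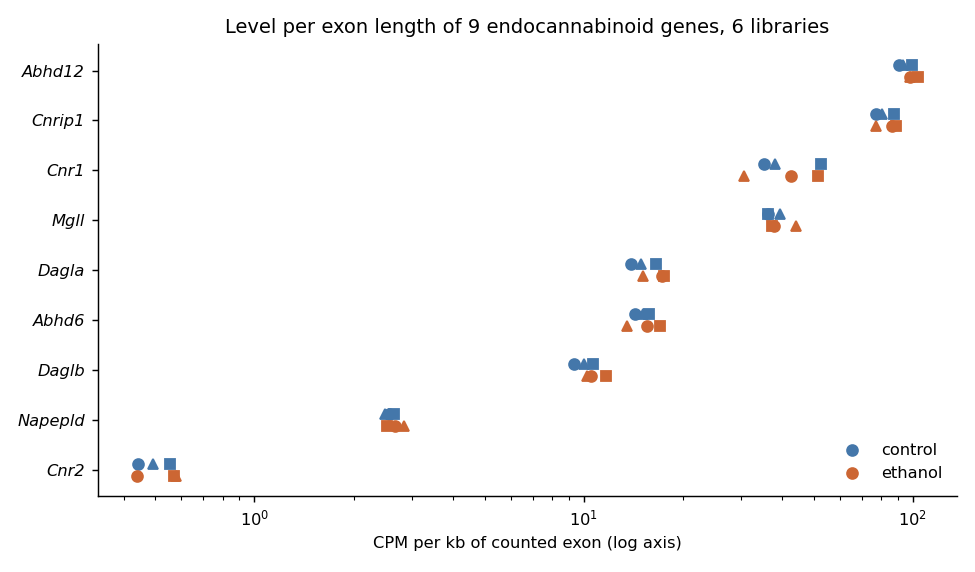
Level of 9 endocannabinoid genes as CPM per kb of counted exon on a log axis, with 1 symbol for each of the 6 libraries (circle, square and triangle for replicates 1, 2 and 3). Abhd12 and Cnrip1 lie above 77.4, Cnr1 overlaps Mgll, Dagla overlaps Abhd6, and Cnr2 lies below 0.579.

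The groups were compared across 18141 genes with the quasi-likelihood test of edgeR, and p-values were adjusted after Benjamini and Hochberg. Of the 9 genes, 0 had an adjusted p below 0.2, the threshold used in the study, where 0% of all genes tested did. The study's own RNA-seq analysis did report genes below that threshold, and quantitative RT-PCR of selected ones gave similar changes. The 0% thus belongs to the test used here. Each of the 9 had an adjusted p of 1.0 after rounding. At an unadjusted p below 0.05 there were also 0 of the 9, against 4.15% of all genes, and the smallest unadjusted p was 0.150, for Dagla. That count was 1 of the 9, Dagla, without control replicate 2, where 689 of all 18391 genes tested had such a p. It was also 1 of the 9, again Dagla, without ethanol replicate 3, where 1629 of 18356 genes did. The control and ethanol ranges overlapped for each of the 9 genes, whereas 8.85% of all genes tested had groups that did not overlap (3.66% with ethanol higher and 5.19% with ethanol lower). The fitted log2 fold changes lay between -0.02 and 0.14 with a median of 0.08, and 8 of the 9 were above 0. Among all genes tested the median was 0.01 and 52.6% were above 0. In bulk tissue, fewer cells of a type and less RNA per cell cannot be told apart.

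**Figure D2:**
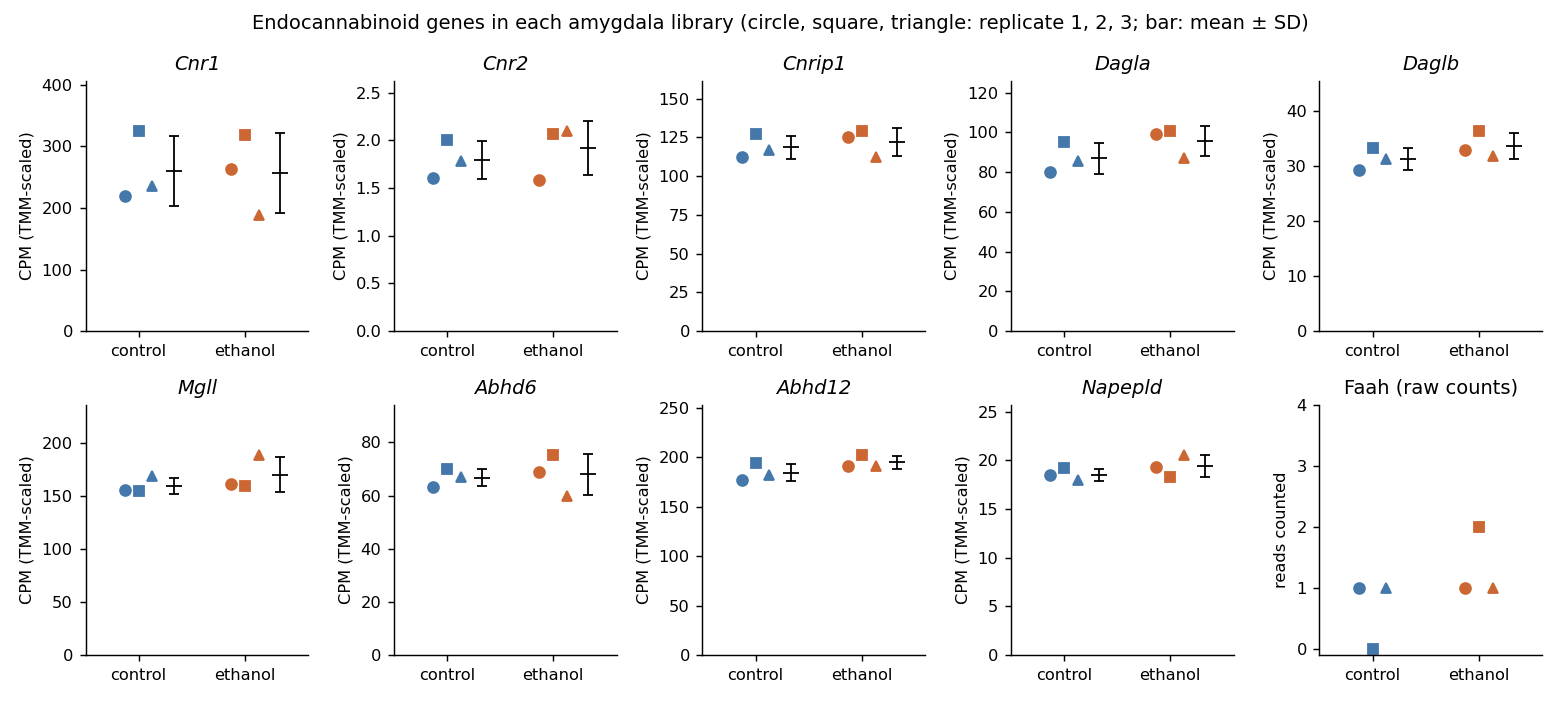
Level of each endocannabinoid gene in each library, as CPM scaled by TMM with the group mean ± SD for 9 genes and as raw counts for Faah. The control and ethanol libraries overlap in each panel, the libraries numbered 2 are the highest for Cnr1 in both groups, and Faah has at most 2 reads.

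Cnr1 encodes the CB1 receptor. The gene (NCBI gene 25248) lies on the plus strand of chromosome 5 of Rnor_6.0 from 49307584 to 49333064, with 4 exonic stretches and 6178 counted bases. Its level was 219, 325 and 236 CPM in control libraries 1, 2 and 3, and 263, 319 and 189 CPM in ethanol libraries 1, 2 and 3. The library numbered 2 was the highest of its group both times, ethanol library 3 was the lowest of all, and the groups overlapped almost completely. Control averaged 260 ± 57.0 CPM and ethanol 257 ± 65.1 CPM (SD, n = 3 each), which gave a log2 fold change of -0.02 ± 0.21 (SE). The 95% interval of the change ran from 0.707-fold to 1.39-fold, so the data allow a change of either sign within these bounds. The exact permutation test of the log2 CPM, 2-sided, gave p = 0.9. The direction turned with single libraries: the log2 fold change was 0.18 without control replicate 2, 0.16 without ethanol replicate 3 and -0.20 without ethanol replicate 2.

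Cnr1 was the most variable of the 9 genes. Its highest library was 1.72-fold above its lowest, against 1.14-fold to 1.32-fold for the other 8 genes. The SD of its log2 CPM within groups was 0.34, against a median of 0.11 for the 14241 genes that exceeded 1 CPM throughout. This placed Cnr1 at percentile 95.4 of these genes, and at percentile 98.3 of the 1000 genes nearest to it in level. Summed cell type markers are set beside these values. The glutamatergic neuron markers, led by Slc17a7, stood at 594, 989 and 738 CPM in control libraries 1, 2 and 3 and at 899, 1111 and 621 CPM in ethanol libraries 1, 2 and 3. They were thus highest in the libraries numbered 2, as Cnr1 was, and lowest in control library 1 and ethanol library 3, which also had the least Cnr1. The CCK interneuron markers, led by Cck, were highest in ethanol library 2 with 170 CPM and lowest in ethanol library 3 with 105 CPM. The markers of GABA neurons and central amygdala, led by Gad1, had another order, with the highest sum in control library 1 (1190 CPM) and the lowest in control library 3 (922 CPM). The sum of 4 oligodendrocyte markers, of which 0 were at 0 CPM, was 4175, 1630 and 3042 CPM in control libraries 1, 2 and 3 and 2092, 2791 and 5545 CPM in ethanol libraries 1, 2 and 3. It was thus highest in ethanol library 3 and control library 1, where Cnr1 was lowest, and lowest in control library 2, where Cnr1 was highest. The part of these cell types in the spread of Cnr1 was not tested.

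**Figure D3:**
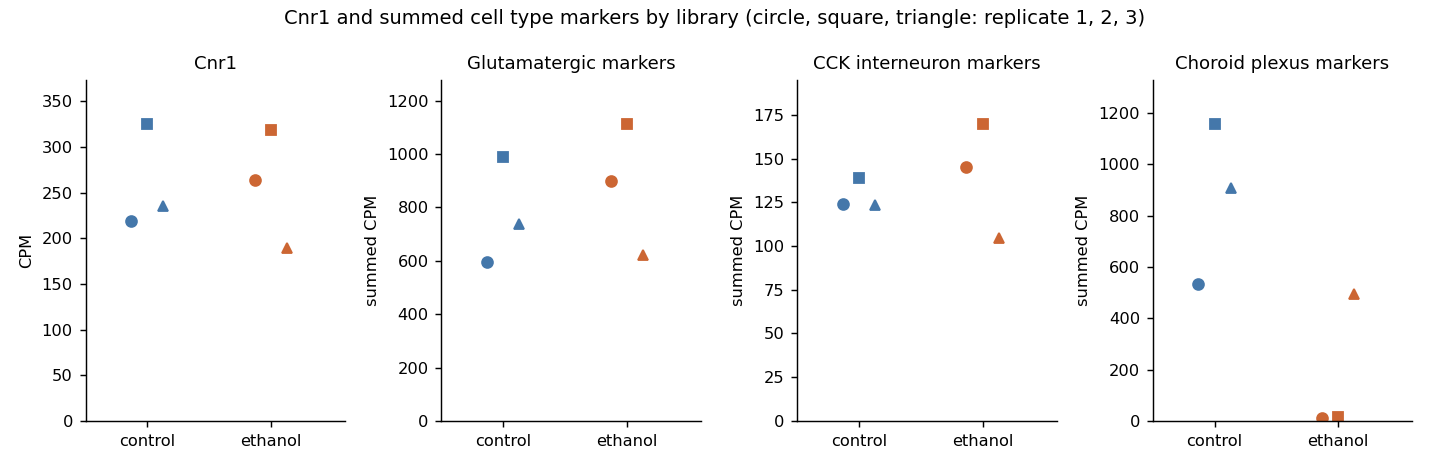
Cnr1 in CPM and the summed CPM of 3 marker lists in each library, with circles, squares and triangles for replicates 1, 2 and 3. Cnr1 and the glutamatergic markers are both high in the libraries numbered 2, CCK interneuron markers are lowest in ethanol library 3 (105 CPM), and choroid plexus markers are at 533 CPM or more in the controls and at 12.5 and 13.5 CPM in ethanol libraries 1 and 2.

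Cnr2 encodes the CB2 receptor, which is known mainly from immune cells, including microglia. It lies on the plus strand of chromosome 5 from 154242010 to 154268126 (NCBI gene 57302). Its counts were 105, 142 and 113 in control libraries 1, 2 and 3 and 102, 133 and 146 in ethanol libraries 1, 2 and 3, well above the floor of 3 counts. Control averaged 1.80 ± 0.197 CPM and ethanol 1.92 ± 0.285 CPM (SD, n = 3 each), and both the lowest and the highest library belonged to the ethanol group. The log2 fold change was 0.09 (standard error 0.17), with an interval from 0.816-fold to 1.40-fold. It was 0.01 without control replicate 1 and 0.21 without ethanol replicate 1. Summed microglial markers, led by Csf1r, lay between 219 and 243 CPM in controls and between 221 and 259 CPM after ethanol. Per kb, Cnr1 was thus represented at 41.8 and Cnr2 at 0.513 in the same tissue.

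Cnrip1 encodes a protein that binds the C-terminal tail of the CB1 receptor. It lies on the plus strand of chromosome 14 from 100217547 to 100247235 (NCBI gene 364208). It was measured at 112, 127 and 117 CPM in control libraries 1, 2 and 3 and at 125, 129 and 112 CPM in ethanol libraries 1, 2 and 3. The library numbered 2 was again the highest in each group, but the whole range was narrow, and the log2 fold change of 0.04 (standard error 0.08) had an interval from 0.911-fold to 1.16-fold. Without control replicate 1 it was -0.00408.

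The diacylglycerol lipases showed the largest fitted differences among the 9 genes tested, although neither passed the test. This order was not stable. Without ethanol replicate 1, the log2 fold changes of Cnr2 (0.21) and Mgll (0.126) were above those of Dagla (0.111) and Daglb (0.124). Dagla encodes the diacylglycerol lipase held to supply most 2-arachidonoylglycerol at adult synapses, and it lies on the minus strand of chromosome 1 from 226297013 to 226353712 (NCBI gene 309207, 21 exonic stretches). Its level was 79.9, 95.4 and 85.6 CPM in control libraries 1, 2 and 3 and 99.1, 100.7 and 87.2 CPM in ethanol libraries 1, 2 and 3. Ethanol libraries 1 and 2 lay above all controls, while ethanol library 3 lay within the control range. Control averaged 87.0 ± 7.84 CPM and ethanol 95.7 ± 7.41 CPM (SD, n = 3 each), for a log2 fold change of 0.14 (standard error 0.09), with an interval from 0.958-fold to 1.26-fold (exact permutation test, 2-sided, p = 0.2). When single libraries were left out, the log2 fold change stayed between 0.07 (without control replicate 1) and 0.21 (without control replicate 2), and the smallest adjusted p that edgeR gave it among these fits was 0.546. Daglb, the related lipase with a known role in microglia and macrophages, lies on the minus strand of chromosome 12 from 13113073 to 13157748 (NCBI gene 304289). It was measured at 29.2, 33.4 and 31.4 CPM in control libraries 1, 2 and 3 and at 32.9, 36.4 and 31.9 CPM in ethanol libraries 1, 2 and 3. Only ethanol library 2 was above the highest control, and the log2 fold change of 0.11 (standard error 0.08) had an interval from 0.948-fold to 1.22-fold.

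Of the 3 hydrolases of 2-arachidonoylglycerol, Abhd12 and Mgll had higher levels per kb than Abhd6. Mgll encodes monoacylglycerol lipase, the main such enzyme of brain, and lies on the plus strand of chromosome 4 from 120671436 to 120773458 (NCBI gene 29254). Its level was 155, 154 and 168 CPM in control libraries 1, 2 and 3 and 161, 159 and 189 CPM in ethanol libraries 1, 2 and 3. The value of ethanol library 3 stood above the other 5 libraries, the reverse of its place for Cnr1. The log2 fold change was 0.09 (standard error 0.08), and it was 0.00810 without ethanol replicate 3, so this library carried most of the difference. In that library the astrocyte markers, led by Aqp4, were also at their highest (5034 CPM, against 3714 to 4451 CPM in controls), as were the 4 oligodendrocyte markers (5545 CPM, against 1630 to 4175 CPM in controls), and their part in the Mgll value was not tested. A stretch of 89 counted bases of Mgll lies opposite another gene, which the stranded counting kept apart.

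Abhd6 encodes a hydrolase of the inner membrane face that acts on 2-arachidonoylglycerol close to its site of synthesis. It lies on the minus strand of chromosome 15 from 18647903 to 18695133 (NCBI gene 305795). It was measured at 63.3, 69.8 and 66.9 CPM in control libraries 1, 2 and 3 and at 68.8, 75.4 and 59.9 CPM in ethanol libraries 1, 2 and 3. The highest and the lowest library were both ethanol libraries, and the log2 fold change was 0.03 (standard error 0.09, interval 0.884-fold to 1.18-fold). It was -0.02 without control replicate 1 and -0.05 without ethanol replicate 2. Abhd12 encodes an integral membrane hydrolase better known for breaking down lysophosphatidylserine, and lies on the minus strand of chromosome 3 from 146630298 to 146690375 (NCBI gene 499913). Its level was 178, 194 and 183 CPM in control libraries 1, 2 and 3 and 191, 203 and 191 CPM in ethanol libraries 1, 2 and 3. All ethanol libraries were above the control mean, yet control library 2 was above a pair of them. The log2 fold change of 0.08 (standard error 0.06) had an interval from 0.953-fold to 1.17-fold, the narrowest of the 9 genes together with the smallest within-group SD of 0.06 on the log2 scale.

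Napepld encodes the phospholipase D that releases anandamide and related amides from membrane lipids. It lies on the plus strand of chromosome 4 from 9965323 to 10004650 (NCBI gene 296757). Its level was 18.4, 19.2 and 18.0 CPM in control libraries 1, 2 and 3 and 19.3, 18.3 and 20.6 CPM in ethanol libraries 1, 2 and 3, with overlapping groups. The log2 fold change of 0.07 (standard error 0.07) had an interval from 0.931-fold to 1.18-fold.

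Faah encodes fatty acid amide hydrolase, the main anandamide-degrading enzyme and one known to be expressed in rat brain. Here it had 1, 0 and 1 reads in control libraries 1, 2 and 3 and 1, 2 and 1 reads in ethanol libraries 1, 2 and 3, under the floor of 3 counts (0.0422 to 0.0473 CPM) in every library. No fold change is given, since both groups were under the floor. The gene (NCBI gene 100911581) lies on the minus strand of chromosome 5 of Rnor_6.0 from 134852899 to 134872095. The same annotation holds another gene (NCBI gene 29347, without a matched symbol) on the same strand from 134330204 to 134349400, which is 522695 bases away. Both have 15 exonic stretches of identical length and spacing and 3870 counted bases, and the other copy had 2 reads over the 6 libraries. The counting had left out reads that align to several places. Nsun4, the next gene at higher coordinates, shares 89.3% of its counted bases with another gene at the same distance, and had 2 reads in all. Gene 366449 (without a matched symbol), Uqcrh and Lrrc41, which follow, share 0% at that distance and had 184, 57748 and 20900 reads in all. Rad54l, further on, shares 12.6% and had 611 reads. Dmbx1, on the other side of Faah, shares 0% and had only 18 reads.

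Such copies were then counted over the whole annotation. Of 16597 genes with at least 5 exonic stretches, 60 had an identical layout elsewhere on the same chromosome and strand, and 58 of these (96.7%) had a median of 2 reads or fewer. Of the 16537 genes without such a copy, 16.6% did. The 60 genes match one another, so they are not independent cases. Faah was the only 1 of the 10 genes with a copy. No expression level in the amygdala and no effect of ethanol is read from the counts of Faah, which were under the floor in every library. Whether reads were lost to the copy was not tested, since the reads were not analysed here.

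**Figure D4:**
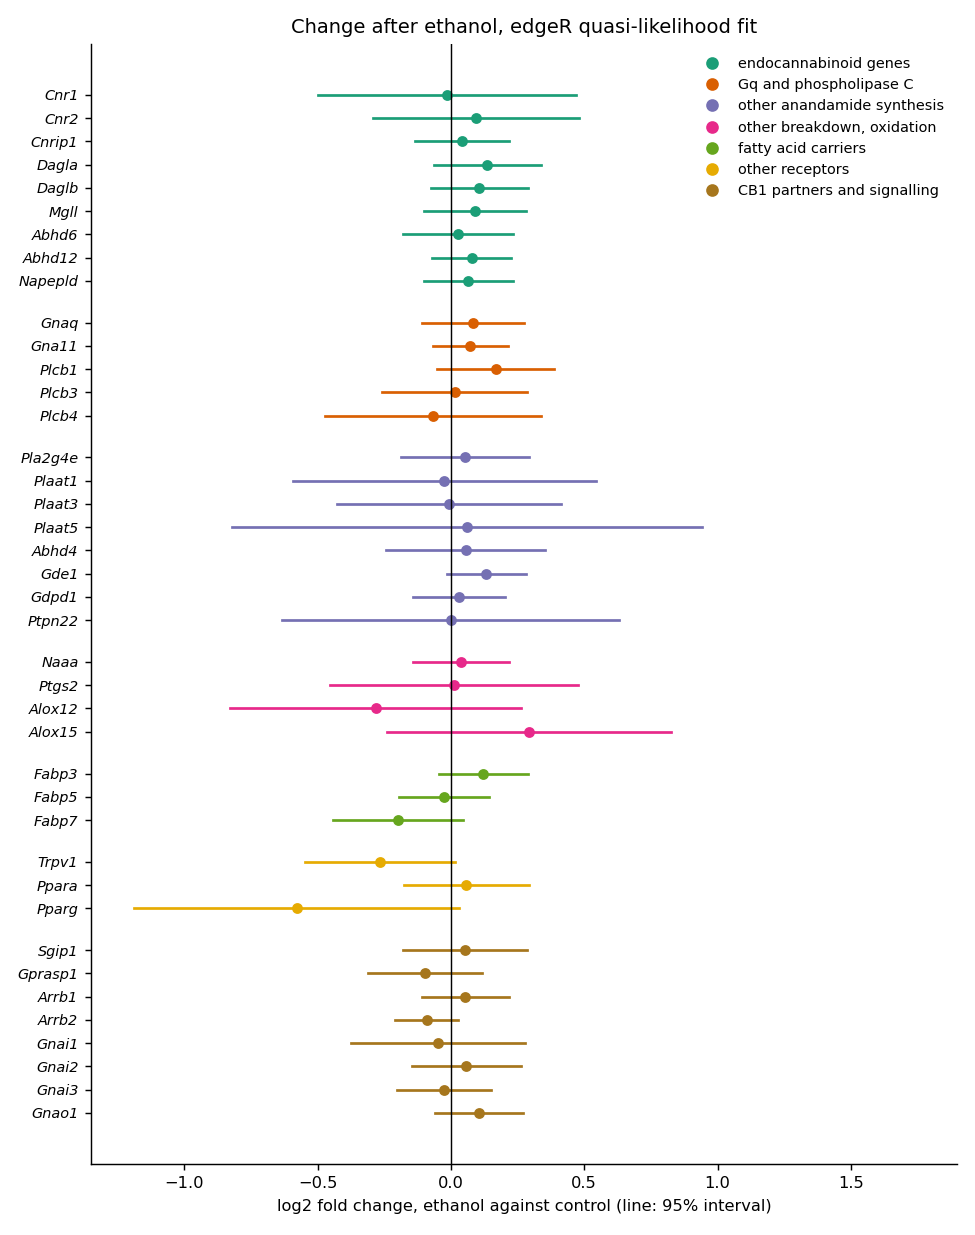
Log2 fold change after ethanol with its 95% interval from edgeR's quasi-likelihood fit, for the 9 endocannabinoid genes tested and the 31 tested genes of the wider pathway, in groups by role. Each interval includes 0, and those of Cnr1, Pparg and Plaat5 are among the wide ones.

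The wider pathway was followed through 35 more genes in 6 roles, of which 31 were tested. An adjusted p below 0.2 was found for 0 of the 31 and an unadjusted p below 0.05 for 0 of them (edgeR's quasi-likelihood test), and the median log2 fold change was 0.03. The count at an unadjusted p below 0.05 was 3 without ethanol replicate 3, where 1629 of all 18356 genes tested had such a p. It was 3 with the replicate number as a block (1015 of 18141 genes) and 2 with scaling by library size alone (819 of 18141). It was 1 without control replicate 2 (689 of 18391) and 1 without ethanol replicate 1 (659 of 18439). The groups did not overlap for 4 of the 31 (12.9%, against 8.85% of all genes tested). Of these 4, Trpv1 and Gnao1 were among the 2 most abundant genes of their roles. Pparg and Arrb2 were named after their values were seen. Trpv1, a cation channel that anandamide can open, averaged 2.51 ± 0.122 CPM in the control and 2.09 ± 0.0752 CPM in the ethanol group (SD, n = 3 each), with a log2 fold change of -0.27 ± 0.12 (SE). Pparg, a nuclear receptor for fatty acid derivatives, had counts of 18, 22 and 16 in control libraries 1, 2 and 3 and of 14, 10 and 13 in ethanol libraries 1, 2 and 3, for a log2 fold change of -0.58 ± 0.26 (SE). Arrb2, a beta-arrestin that desensitizes G protein-coupled receptors, had 58.8 ± 0.434 CPM and 55.2 ± 1.26 CPM, a log2 fold change of -0.09. Gnao1, the alpha subunit of Go through which CB1 acts on calcium channels, had 502 ± 13.9 CPM and 540 ± 23.5 CPM, a log2 fold change of 0.11.

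Upstream of the diacylglycerol lipases, phospholipase C beta makes diacylglycerol when Gq-coupled receptors are active. Plcb1 stood at 152 ± 7.59 CPM in the control and 171 ± 20.4 CPM in the ethanol group (SD, n = 3 each), and Gnaq, the alpha subunit of Gq, at 59.7 ± 2.86 and 63.2 ± 6.22 CPM. The 5 genes of this step had log2 fold changes between -0.07 and 0.17. On alternative routes to anandamide, Abhd4, a lipase for N-acyl phospholipids, had 99.0 ± 10.4 and 103 ± 17.7 CPM, and Gde1, a phosphodiesterase that releases anandamide from its glycerophospho precursor, had 80.4 ± 3.27 and 88.1 ± 5.05 CPM. The log2 fold change of Gde1 was 0.13 (standard error 0.06), and its groups overlapped.

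Naaa, a lysosomal amidase for N-acylethanolamines, averaged 12.7 ± 0.713 CPM in the control and 13.1 ± 0.191 CPM in the ethanol group (SD, n = 3 each). Ptgs2, the cyclooxygenase that can oxidize endocannabinoids, had 12.01 ± 1.98 and 12.1 ± 3.01 CPM. Neither differed beyond the spread between libraries. Among the fatty acid binding proteins, which carry anandamide inside cells, Fabp7, an astroglial form, had 168 ± 14.2 and 147 ± 19.1 CPM with overlapping groups, and Fabp5 had 66.6 ± 2.02 and 65.5 ± 5.66 CPM. Ppara, a nuclear receptor for acylethanolamides, had 12.1 ± 0.907 and 12.5 ± 1.16 CPM. Gprasp1, which sorts receptors including CB1 to lysosomes, was the most abundant gene of the list in CPM, with 930 ± 35.1 and 869 ± 81.6 CPM. The genes that were not tested were Gpr55, Gpr18, Gpr119 and Gdpd3, with at most 9 counts in any library.

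**Figure D5:**
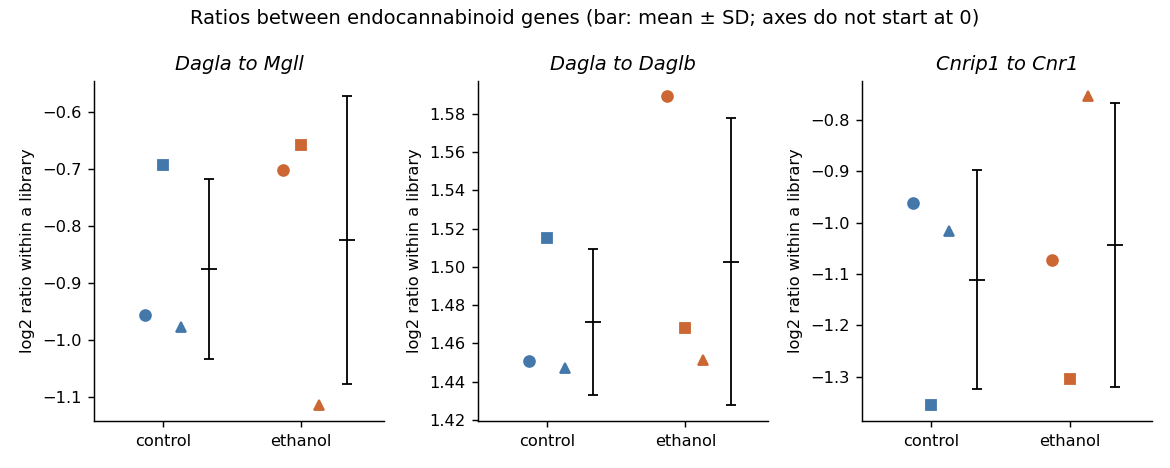
Log2 ratio between the CPM of gene pairs within each library, by group, with the mean ± SD beside the symbols for replicates 1, 2 and 3. The groups overlap for each pair, and ethanol library 3 is lowest for Dagla to Mgll (-1.11) and highest for Cnrip1 to Cnr1 (-0.75).

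Ratios within a library do not depend on the scaling between libraries, and 3 were compared as log2 ratios of CPM, without correction for length. The ratio of Dagla to Mgll, synthesis against breakdown of 2-arachidonoylglycerol, averaged -0.88 ± 0.16 in the control and -0.83 ± 0.25 in the ethanol group (SD, n = 3 each). Dagla to Daglb gave 1.47 ± 0.04 and 1.503 ± 0.08, and Cnrip1 to Cnr1 gave -1.11 ± 0.21 and -1.04 ± 0.28. The differences of 0.05, 0.03 and 0.07 were within the spread between libraries, with p = 0.9, 0.5 and 0.9 in 2-sided exact permutation tests and an adjusted p of 0.9 for each over the 3 ratios. Each changed sign when single libraries were left out. For Dagla to Mgll these were ethanol replicate 1 (-0.01) and ethanol replicate 2 (-0.03), for Dagla to Daglb ethanol replicate 1 (-0.01), and for Cnrip1 to Cnr1 control replicate 2 (-0.06) and ethanol replicate 3 (-0.08). The smallest p that 3 libraries against 3 allow is 0.1. The ratio of Napepld to Faah was not computed because of the counts of Faah.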

How the data were processed

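The RNA-seq libraries, 3 per group, were single-end and strand-specific. Per the file headers, the authors deposited raw counts, the reads that featureCounts 1.6.3 assigned to the exons of each Rnor_6.0 gene with the reverse-stranded setting (2). Multi-mapping reads, and reads over more than 1 gene, had not been counted. The submitters' processing notes name STAR 2.7.0f. Gene symbols for 29322 of 38445 identifiers came from a RefSeq gene table of a later assembly (GRCr8), from which no coordinates were used.

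The deposited counts were tested with edgeR 4.0.16 under R 4.3.3. Genes passed filterByExpr at its default minimum of 10 counts (15 in total), libraries were scaled by TMM, and groups were compared with the quasi-likelihood F test and Benjamini-Hochberg adjustment. Standard errors are the log2 fold change divided by the square root of F, and the 95% interval uses the t quantile of the fit. Log2 CPM carries a prior count of 2. Exact permutation tests went through all 20 splits of 6 libraries. The floor of 3 counts covers counting error only, since the reads carried no molecular identifiers. No library was a copy of another of its group, since same-group pairs differed beyond counting error (chi-square per degree of freedom 15.3 to 72.6).

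On simulated counts for this comparison (18004 genes), 50 genes were changed at each of 1.25-fold, 1.5-fold, 2-fold and 4-fold. At the threshold of 0.2 the test called 18% of those changed by 1.25-fold and 72% of those changed by 1.5-fold. It also called 39 genes that had not been changed. The adjusted p depends on how many genes change, so these shares need not hold for the data, where 0 of 18141 genes were called. The members and the lists of pathway and marker genes were chosen with earlier results of these data known. Genes named in the text were all 10 members and the 2 most abundant pathway genes of each role. Pparg and Arrb2 were added after their values were seen, because their groups did not overlap. Of the marker genes, Ccdc153 was not matched, and 1 marker gene is not reported here and was left out of the sum printed for its list. Alternatives were other scalings, no filter, DESeq2, edgeR's likelihood ratio test, limma-voom, the replicate number as a block, and each library left out.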

Additional observations from a re-analysis of the deposited data

How the results depend on the processing

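The count of 0 endocannabinoid genes and 0 genes of the wider pathway with an adjusted p below 0.2 was the same in all 13 alternative fits. Over all genes, the quasi-likelihood test of edgeR gave 0 of 18141 (752 at an unadjusted p below 0.05), DESeq2 gave 75, the likelihood ratio test 77 and limma-voom 0, and leaving out 1 library in turn gave 0 to 83, with 83 of 18356 without ethanol replicate 3 and 4 of 18439 without ethanol replicate 1. The cause was not tested. With library size alone the log2 fold change of Abhd6 was -0.000496. With 1 library left out in turn, it ran from -0.052 to 0.11 for Abhd6, from -0.20 to 0.18 for Cnr1 and from -0.00408 to 0.10 for Cnrip1, and kept its sign for the other 6 genes. The log2 ratio differences ran from -0.033 to 0.20 for Dagla to Mgll, from -0.012 to 0.057 for Dagla to Daglb and from -0.077 to 0.20 for Cnrip1 to Cnr1. The main fit did not pair libraries by replicate number. The deviations from the group means correlated by 0.0264, 0.388 and 0.211 for numbers 1, 2 and 3. Between unlike numbers the correlations ran from -0.427 (control 2 with ethanol 3) to 0.305 (control 1 with ethanol 3). These values do not settle whether the numbers pair the libraries. Fitted with a replicate block, 0 genes had an adjusted p below 0.2 and 1015 an unadjusted p below 0.05, of which 0 were endocannabinoid genes and 3 were of the wider pathway, and the log2 fold change was -0.03 for Cnr1 and 0.14 for Dagla. With at most 9 counts in a library, Gpr55, Gpr18, Gpr119 and Gdpd3 gave no test, and why Faah had so few reads was not tested.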

Other observations

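The level of Cnr1 was also set against the summed CPM of each of 4 neuronal marker lists within a library, a comparison chosen after the values were seen. Relative to the glutamatergic neuron markers, the log2 ratio of Cnr1 was -1.44, -1.61 and -1.65 in control libraries 1, 2 and 3 and -1.77, -1.80 and -1.72 in ethanol libraries 1, 2 and 3. All ethanol libraries lay below all controls, with a difference of -0.20 and an SD of 0.11 in controls and 0.04 after ethanol (2-sided exact permutation p = 0.1, which is the lower limit of this design, and 0.4 adjusted over the 4 lists). The list includes Tbr1, which had a log2 fold change of 0.55 after ethanol and groups that did not overlap. Of the 6 markers of the list, 5 had a log2 fold change above 0, and 0 had an adjusted p below 0.2. Without Tbr1 the difference was -0.19 and the groups did not overlap either. The part of the denominator in the difference was not tested. With Slc17a7 alone as the denominator the difference was -0.19 but the groups overlapped (exact permutation test, p = 0.3). Relative to the pan-neuronal, the GABA neuron and central amygdala, and the CCK interneuron markers, the differences were -0.13, -0.05 and -0.12 and the groups overlapped.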
